A study of Mus musculus with 10 samples.

Results

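The genes described here encode the digestive enzymes of the lysosome, the proteins of its membrane, and Tfeb, a transcription factor that switches such genes on. The list holds 40 genes, chosen by name with earlier results of these data known. Every probe set that the array annotation assigns to exactly 1 of them was taken. This gave 87 of the 45037 probe sets on the array, for 39 of the 40 genes (of 18193 genes with such a probe set), and Cd63 had none. RNA of whole livers was hybridised to 1 Affymetrix mouse array per liver, from 5 wild type and 5 Zfp36l2 knockout fetuses at embryonic day 14.5, all on a mixed B6 and 129 strain background. Zfp36l2 encodes an RNA-binding protein that promotes decay of mRNAs with AU-rich elements. The labels give no litter or sex, and the comparison asks which transcripts differ in fetal liver without this protein.

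Lysosomes degrade proteins, glycans and lipids at acid pH. Their hydrolases are made in the secretory pathway, most are tagged with mannose 6-phosphate and delivered through endosomes, and a vacuolar proton pump acidifies the organelle. Most liver cells have lysosomes, but macrophages, which in fetal liver engulf the nuclei expelled by red cell precursors, are especially rich in them. Ctss, Laptm5 and Cd68 are the members known mainly from macrophages and other leukocytes, and the other 36 genes measured are called general here.

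Values are the deposited intensities after quantile normalization, in arbitrary units and printed without a floor. For the log2 differences and tests, values under 16 were set to 16. A gene is represented by its brightest probe set, differences are log2 of knockout minus wild type, and a gene is called where limma's adjusted p over all 27022 tested probe sets is under 0.05. On the deposited scale array medians ran from 19.5 to 25.01, and each array's mean correlation with the others was 0.954 to 0.960. The targeted gene fell from 434 ± 91.0 to 102 ± 11.3 (SD, n = 5), with no overlap between genotypes. Afp, the fetal hepatocyte marker, averaged 16358 and 16287, near the top of the scale. Of the marker lists, 6 of 6 megakaryocyte genes were lower and 4 were called (Pf4, Ppbp, Gp5 and Itga2b, log2 -1.39, -1.38, -1.59 and -0.83). Of 4 mast cell and eosinophil genes tested (median 0.79) the eosinophil peroxidase gene Epx was called higher, at 32.2 and 158. By limma 0 markers were called among 6 erythroid genes (median -0.20, brightest Slc4a1 at 0.00, 4 lower at an unadjusted p under 0.05, of which Ank1 at -0.29 and Epor at -0.44 had no overlap) and 7 hepatoblast and hepatocyte genes (median 0.03, 1 higher). The same held for 6 endothelial genes (median 0.21, Lyve1 at 0.14, 2 higher) and 5 lymphoid genes (median 0.31, Igll1 at 0.31, 1 higher). Of all genes tested, 0.157% were called higher and 0.173% lower. At an unadjusted limma p under 0.05 the shares were 5.97% and 5.67%. Every knockout liver lay below every wild type liver in 1.44%.

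Most lysosomal genes had a higher mean in the knockout livers, by small amounts. Of 39 genes, all of which passed the filter on dim values, 30 had a positive log2 difference (76.9%), against 50.1% of all 12744 genes tested. The median was 0.13, against 0.00 over all genes. Only Ctsc and Psap rose by the limma call, 5.13% of the list against 0.157% of all genes called higher, and 0 were called lower, against 0.173%. At an unadjusted p under 0.05 limma gave 10 higher and 1 lower, 25.6% higher against 5.97% of all genes, and 5.67% of all genes were lower. In 5 genes every knockout liver lay above every wild type liver: Ctsc, Psap, Ctsz, Gusb and Npc2. That is 12.8% of the list against 1.34% of all genes, and no member had the opposite arrangement, seen in 1.44% of all genes. Because the list was chosen with earlier results known, its shares were not tested against those of all genes. These livers are whole organs, so more cells of a type and more RNA per cell cannot be told apart.

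**Figure D1:**
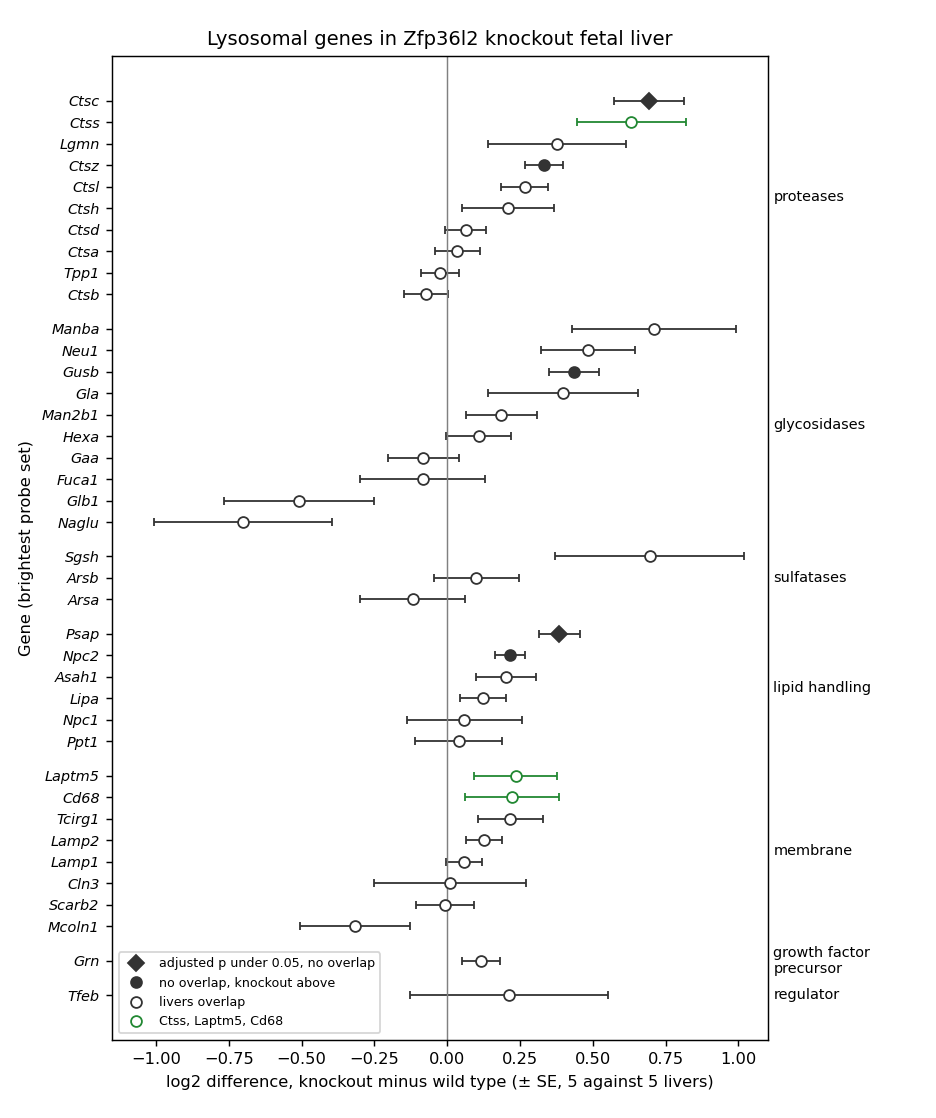
Log2 difference between 5 knockout and 5 wild type livers (points, ± SE) for the brightest probe set of 39 lysosomal genes, grouped by role on the vertical axis. Ctsc and Psap (diamonds) passed the test, and the filled points Ctsz, Gusb and Npc2 mark the other genes whose genotypes did not overlap; Ctss, Laptm5 and Cd68 are green.

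Among the 10 lysosomal proteases 8 differences were positive, with a median of 0.24. Ctsc encodes cathepsin C, a dipeptidyl peptidase that activates the serine proteases of neutrophil and mast cell granules. Its wild type livers read 719, 730.3, 749, 481 and 859, and its knockout livers 1091, 1093, 1302, 1032 and 1123. The highest wild type liver thus lay below the lowest knockout liver. Ctsc averaged 708 ± 139 and 1128 ± 103 (SD, n = 5), a 1.62-fold rise (log2 0.69 ± 0.12 SE, limma adjusted p = 0.0396, exact permutation p = 0.00794). That exact p is the smallest that 5 against 5 livers can give. The call was lost without any 1 liver other than wild type replicate 4 or 5 (limma adjusted p from 0.0703 to 0.0917 in those fits), while the log2 difference stayed between 0.64 and 0.73. It was also lost with a floor of 32 (adjusted p = 0.142), a floor at the lowest positive value (0.0871), no filter (0.240), no trend in the variance (0.260) and the mean over its probe sets (0.360). The dimmer Ctsc probe sets averaged 30.2 and 39.3, and 7.03 and 18.6, near the floor, and were not called (limma adjusted p = 0.683 and 0.863). The 250 bases before the Ctsc start, from RefSeq on GRCm38.p6, are shown because Ctsc had the largest called difference, with an ETS-type motif in capitals that is described with the other promoters.
Ctsc, chr7:88277835-88278084, plus strand: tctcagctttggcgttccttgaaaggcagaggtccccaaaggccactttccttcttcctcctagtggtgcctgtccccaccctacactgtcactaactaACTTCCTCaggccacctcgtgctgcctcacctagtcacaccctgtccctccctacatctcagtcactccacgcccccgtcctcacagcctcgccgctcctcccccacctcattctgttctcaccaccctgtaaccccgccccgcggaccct

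Ctsz encodes cathepsin Z, a carboxypeptidase. Ctsz read 987, 821, 860.3, 836 and 956 in wild type and 1145, 1192, 1066, 1128 and 1076 in knockout livers. The genotypes did not overlap, at 892 ± 74.6 and 1122 ± 51.6 (log2 0.33 ± 0.06, limma adjusted p = 0.0558, just over the threshold). The other Ctsz probe sets had differences of 0.28 and 0.40 (limma adjusted p = 0.120 and 0.151), also without overlap. Cathepsin S (Ctss), the protease that trims the invariant chain of MHC class II, read 186, 247, 258, 141 and 234 in wild type and 283, 222, 434, 358 and 358 in knockout livers. Knockout replicate 2 lay inside the wild type range and the other 4 above it. Ctss averaged 213 ± 49.0 and 331 ± 81.3 (log2 0.63 ± 0.19, limma adjusted p = 0.213, exact permutation p = 0.0397).

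The cysteine protease gene Ctsl averaged 1872 ± 242 and 2239 ± 146 (log2 0.27 ± 0.08, limma adjusted p = 0.234), and 3 knockout livers lay above the highest wild type liver. Legumain (Lgmn), which cleaves after asparagine, differed by 0.38 ± 0.24 and ranged from 171 to 517 among wild type livers alone. Ctsh, an aminopeptidase, differed by 0.21, Ctsd, the main aspartic protease, by 0.06 and Ctsa, a carboxypeptidase that also stabilises lysosomal sialidase and galactosidase, by 0.04. Tpp1, a tripeptidyl peptidase, differed by -0.03. Ctsb, the brightest member, averaged 5545 ± 528 and 5271 ± 466 (log2 -0.07, limma adjusted p = 0.823). Its 5 probe sets did not all point one way. The dimmest read lower in every knockout liver, with 86.2 ± 14.7 and 50.6 ± 8.27 and no overlap (log2 -0.77, limma adjusted p = 0.159), while the other 3 differed by 0.07 to 0.14.

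The 10 glycosidases showed the widest range, from -0.70 to 0.71, with 6 positive. Gusb encodes beta-glucuronidase, which removes glucuronic acid from glycosaminoglycans. Gusb read 344, 311, 296, 344 and 329 in wild type and 430.0, 471, 378, 502 and 420.4 in knockout livers. The genotypes did not overlap, at 325 ± 21.3 and 440.4 ± 47.9 (log2 0.43 ± 0.09, limma adjusted p = 0.0600). The second Gusb probe set, at 137 ± 18.5 and 178 ± 12.5, also had no overlap (log2 0.39, limma adjusted p = 0.249).

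Neu1, the lysosomal sialidase, read 88.5, 81.8, 122, 107 and 92.6 in wild type and 133, 154, 161, 104 and 136 in knockout livers. All but knockout replicate 4 lay above the wild type range (log2 0.48 ± 0.16, limma adjusted p = 0.287, exact permutation p = 0.0238). Manba, the beta-mannosidase gene, read 29.4, 44.7, 81.7, 36.6 and 47.9 in wild type and 54.6, 86.3, 63.3, 72.4 and 102 in knockout livers. The overlap came from wild type replicate 3 (log2 0.71 ± 0.28, limma adjusted p = 0.407). Gla, the alpha-galactosidase that is deficient in Fabry disease, read 40.1, 40.7, 71.4, 40.2 and 38.7 in wild type and 76.3, 71.2, 55.8, 58.3 and 40.7 in knockout livers. Here too wild type replicate 3 stood among the knockout values, but knockout replicate 5 also stood among the other wild type values (log2 0.40 ± 0.26, limma adjusted p = 0.667).

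Other glycosidase genes had lower means in the knockout. Glb1, the beta-galactosidase, read 89.5, 184, 87.7, 135 and 92.4 in wild type and 51.0, 108, 100.2, 92.1 and 60.8 in knockout livers. The ranges overlapped, and no knockout liver exceeded the wild type mean of 118 (log2 -0.51 ± 0.26, limma adjusted p = 0.559). Naglu, which removes N-acetylglucosamine from heparan sulfate, was dim, at 44.6, 40.7, 26.8, 50.5 and 45.7 in wild type and -1.42, 23.0, 42.7, 19.5 and 32.2 in knockout livers. Knockout replicates 2 and 4, like replicate 1, read below every wild type liver. The Naglu difference of -0.70 ± 0.31 (limma adjusted p = 0.463) depends on the floor, at -0.32 with a floor of 32 and -3.50 at the lowest positive value, so its size is not settled. Hexa, Man2b1, Gaa and Fuca1 differed by 0.11, 0.19, -0.08 and -0.08.

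Of the 3 sulfatases, which strip sulfate from glycans and sulfatides, Sgsh was the dimmest. Sgsh read 16.7, 0.816, 21.6, 34.9 and 41.0 in wild type and 33.7, 55.8, 33.7, 51.5 and 28.3 in knockout livers. Those ranges overlap and 1 wild type liver is under the floor (log2 0.70 ± 0.32, limma adjusted p = 0.499, and 0.23 with a floor of 32). Arsb and Arsa differed by 0.10 and -0.12.

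All 6 genes of lipid breakdown and lipid handling had positive differences, with a median of 0.16. Psap encodes prosaposin, the precursor of the saposins that lift sphingolipids out of membranes for their hydrolases. Psap read 1068, 1217, 1135, 1096 and 1418 in wild type and 1622, 1539, 1513, 1547 and 1492 in knockout livers. No livers overlapped, and the knockout livers lay closer together than the wild type ones. The means were 1187 ± 141 and 1543 ± 49.4 (SD, n = 5), a 1.31-fold rise (log2 0.39 ± 0.07 SE, limma adjusted p = 0.0446, exact permutation p = 0.00794). The second Psap probe set, at 702 ± 56.1 and 897 ± 83.2, gave 0.35 ± 0.08, also without overlap (limma adjusted p = 0.0800). Without any 1 liver other than wild type replicate 5 the call was lost, at log2 differences of 0.35 to 0.40 and adjusted p from 0.0783 to 0.137. It was lost too on the values as deposited (adjusted p = 0.111), at a floor of 32 (0.115) or the lowest positive value (0.0878), with no filter (0.186) or one at the 60th percentile (0.0510), and without the variance trend (0.325). The Psap promoter is shown as that of the other called gene, and holds none of the motifs searched below.
Psap, chr10:60277378-60277627, plus strand: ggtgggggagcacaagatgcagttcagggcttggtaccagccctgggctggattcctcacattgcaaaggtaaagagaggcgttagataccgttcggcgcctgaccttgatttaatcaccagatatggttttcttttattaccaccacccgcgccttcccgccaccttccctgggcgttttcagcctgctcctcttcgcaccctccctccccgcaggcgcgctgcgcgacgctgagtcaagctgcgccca

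Npc2, the soluble protein that binds cholesterol in the lysosome and hands it to the membrane protein Npc1, had the smallest standard error of the 39 genes. Npc2 read 1024, 989.5, 1031, 974 and 1062 in wild type and 1165, 1227, 1192, 1175 and 1139.6 in knockout livers. The genotypes did not overlap, at 1016 ± 35.0 and 1179.6 ± 32.5 (log2 0.22 ± 0.05, limma adjusted p = 0.104). A second bright Npc2 probe set gave 962 ± 57.1 and 1168 ± 51.5 (log2 0.28 ± 0.06, limma adjusted p = 0.0655), again without overlap. Its partner Npc1 averaged 92.8 and 94.5 (log2 0.06 ± 0.20). The acid ceramidase gene Asah1 differed by 0.20 (limma adjusted p = 0.563), the acid lipase gene Lipa by 0.12 and the thioesterase gene Ppt1 by 0.04. The 3 Lipa probe sets gave 0.12, 0.24 and -0.21.

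**Figure D2:**
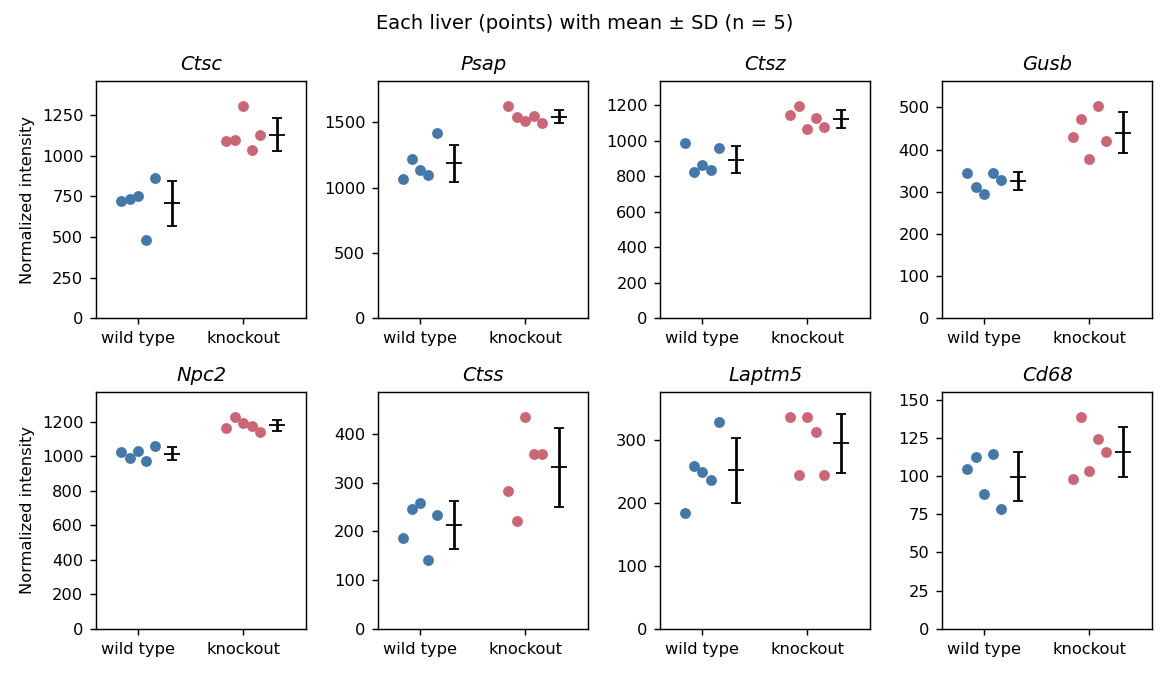
Normalized intensity in each liver (points, vertical axes from 0) with mean ± SD for 8 lysosomal genes, wild type in blue and knockout in red (n = 5 each). In Ctsc, Psap, Ctsz, Gusb and Npc2 all knockout livers lie above all wild type livers, while Ctss, Laptm5 and Cd68 overlap.

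No membrane protein gene was called, and the median of the 8 was 0.09. None of the 8 had an unadjusted limma p under 0.05 at its brightest probe set. Laptm5, a lysosomal membrane protein of blood cells, read 185, 259, 249.7, 237 and 329.8 in wild type and 337, 244, 336, 312 and 245 in knockout livers. The overlap was broad, since knockout replicates 2 and 5 lay at the middle of the wild type values (log2 0.24 ± 0.14, limma adjusted p = 0.643). Its dimmer tested probe sets had differences of 0.56, 0.41 and 0.88 (limma adjusted p = 0.394, 0.616 and 0.408). Cd68, the macrophage sialomucin, read 105, 112, 88.5, 114 and 78.2 in wild type and 97.8, 139, 103, 124 and 116 in knockout livers. Knockout replicates 1 and 3 lay within the wild type range (log2 0.22 ± 0.16, limma adjusted p = 0.716).

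Lamp1 and Lamp2 encode the abundant glycoproteins that line the lysosome. Lamp1 averaged 1649 ± 143 and 1712 ± 50.3 (log2 0.06). The brightest Lamp2 probe set gave 0.13 (limma adjusted p = 0.537), and another gave 423 ± 40.5 and 519 ± 5.69 with no overlap (log2 0.30 ± 0.07, limma adjusted p = 0.111). Tcirg1, a subunit of the proton pump, had 4 knockout livers above the wild type range (log2 0.22 ± 0.11, limma adjusted p = 0.561, exact permutation p = 0.0317). Scarb2, the receptor that carries glucocerebrosidase to the lysosome, was at -0.01 and Cln3 at 0.01. Mcoln1, the calcium channel of the lysosomal membrane, was at -0.32 ± 0.19 (limma adjusted p = 0.632). Grn, the precursor of the granulins, averaged 1053 ± 92.2 and 1138 ± 47.5 (log2 0.11 ± 0.06). Tfeb itself was at or under the floor in 5 livers, with means of 14.4 and 18.5, so its log2 difference of 0.21 is not settled.

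The macrophage-rich genes had positive differences like most of the general ones. For Ctss, Laptm5 and Cd68 the differences were 0.63, 0.24 and 0.22, a median of 0.24, with 3 of 3 positive, 0 called and 0 free of overlap. Ctss overlapped through knockout replicate 2 alone, and without that liver it was free of overlap too. Some general genes also overlapped through 1 liver alone, such as Neu1 (knockout replicate 4) and Manba (wild type replicate 3). The 36 general genes had a median of 0.12, with 27 positive, 2 called and all 5 of the genes without overlap. The label general says only that a gene is not 1 of those 3. Ctsc, whose product activates proteases of neutrophil and mast cell granules, is among the general genes. With the mean over each gene's probe sets in place of the brightest, the macrophage-rich median was 0.52. That is the value of Laptm5, whose dimmer probe sets had larger differences, since Ctss and Cd68 have a single probe set each. The median of all members rose in that setting too, to 0.18 above the median of all genes, against 0.13 with the brightest. Summed over the genes, intensity ran from 476 to 642 in wild type and 604 to 874 in knockout livers for the macrophage-rich genes. For the general genes it ran from 20043 to 24407 and from 23567 to 25082. Both sums overlapped between genotypes, the macrophage-rich one through knockout replicate 2 alone and the general one through wild type replicate 5 alone. Whether the macrophage-rich and general genes differ was not tested, since they were chosen with earlier results known.

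Most macrophage markers also had higher means in the knockout, without any call. Of 19 markers 17 were tested, 16 had positive differences with a median of 0.38, and 0 were called. Of those tested, 7 were higher at an unadjusted limma p under 0.05, against 5.97% of all genes. Clec4f, a receptor of liver macrophages, was the exception at -0.61. The brightest, Cd5l, differed by 0.51, and the defining genes Csf1r and Adgre1 by 0.44 ± 0.14 and 0.31 ± 0.17 (limma adjusted p = 0.250 and 0.582). Cd163 and Vsig4 averaged under 10 in both genotypes. The summed macrophage level was 3931 to 6594 in wild type and 6149 to 7659 in knockout livers. The knockout mean was 1.29 times the wild type mean, beside 1.31 for the macrophage-rich and 1.09 for the general genes. The ratio was 1.85 for mast cell and eosinophil, 1.59 for monocyte and neutrophil, 1.42 for lymphoid and 1.14 for endothelial markers. The rise of the mast cell and eosinophil sum came mainly from the eosinophil genes Prg2 (means of 304 and 579) and Epx. In that list Kit differed by -0.22, and 3 genes were too dim to be tested. For hepatoblast and hepatocyte markers the ratio was 1.00, for erythroid 0.92 and for megakaryocyte 0.40. Most of the hepatoblast and hepatocyte sum came from genes near the top of the scale, such as Afp. Quantile normalization gives all arrays the same top values, so that ratio could hardly move from 1.00. Ctsb made up 5545 of the general wild type mean of 21978 and averaged 5271 in the knockout. Wild type replicate 5 was the highest wild type liver in the macrophage and the general sums. Monocyte and neutrophil markers had 10 of 13 positive, with a median of 0.75 and a range of -0.24 to 1.84. Limma called 0 of them. At an unadjusted limma p under 0.05, 7 were higher and 0 lower, against 5.97% and 5.67% of all genes. Their sums were 6921 to 30511 in wild type and 15702 to 29248 in knockout livers. The brightest, S100a9, differed by 0.93. The part of these cells in the lysosomal differences was not tested.

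**Figure D3:**
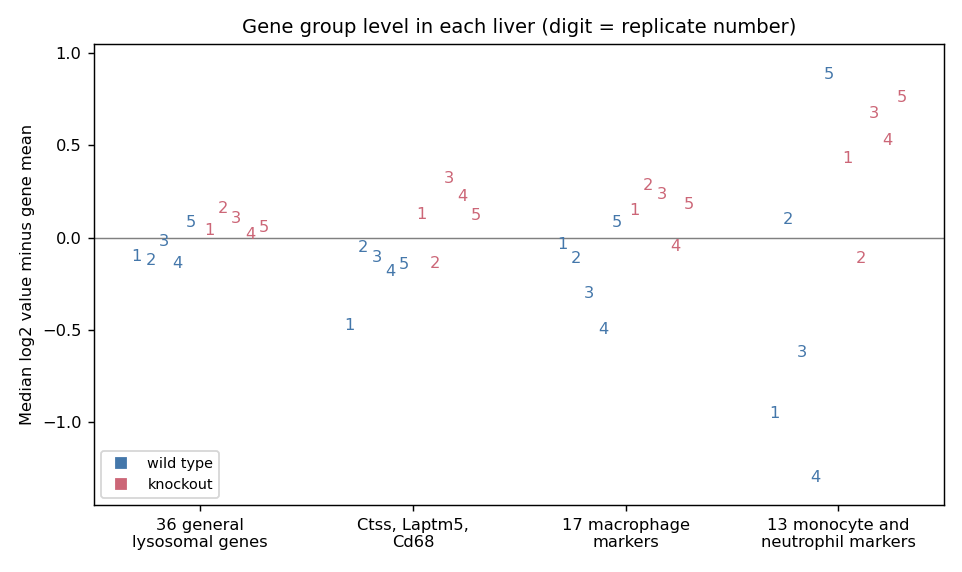
For each liver (digit, the replicate number; wild type blue, knockout red), the median, over the genes of a group, of the log2 intensity centred on each gene's average over 10 livers. General lysosomal genes span -0.14 to 0.16, macrophage markers -0.50 to 0.29 and monocyte and neutrophil markers -1.30 to 0.88, and wild type replicate 5 is the highest wild type liver in these 3 groups.

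Genes with several probe sets gave a wider view. Of 77 tested probe sets of the list 60 had positive differences, against 49.2% of all tested probe sets. Knockout livers lay above all wild type livers in 12 (15.6%) and below them in 1, that of Ctsb, against 1.1% and 1.17% of all probe sets. Limma called 2 higher and 0 lower, against 0.104% in each direction. At an unadjusted p under 0.05 20 were higher and 2 lower, against 5.07% and 4.89%. Of 22 genes with more than 1 tested probe set, 12 had a single sign and 10 had both (Cln3, Ctsb, Fuca1, Gaa, Lipa, Man2b1, Mcoln1, Ppt1, Scarb2 and Tpp1). Probe sets of 1 gene share their RNA and are not replicates.

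Of the 82 other lysosomal genes listed, 75 had a probe set and 72 were tested. In limma 0 were called (12 higher and 4 lower at an unadjusted p under 0.05), 51 were positive, and the median was 0.10. Of all genes 5.97% were higher and 5.67% lower at that unadjusted p, and 50.1% were positive. The smallest p-values belonged to Ifi30, Scpep1, Cln6 and Lmbrd1. Ifi30, a thiol reductase of antigen processing, averaged 704 ± 23.9 and 872 ± 85.1 (log2 0.31 ± 0.07, limma adjusted p = 0.0847). It was the 1 gene of this list without overlap, an arrangement seen in 1.34% of all genes. Scpep1, a serine carboxypeptidase, differed by 0.32, Cln6 by -0.48 and Lmbrd1 by 0.34 (limma adjusted p = 0.202, 0.265 and 0.309).

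Differences in the subunits of the vacuolar proton pump were small and nearly all positive, 13 of 14 with a median of 0.10 and none called. The 20 other hydrolases and activators had 12 positive, the 14 membrane and transport genes 8, the 11 sorting genes, which include both mannose 6-phosphate receptors, 8, the 11 regulators 8, and the 2 cathepsin inhibitors both. Among the relatives of Tfeb, Tfe3 averaged 77.5 ± 13.4 and 104 ± 15.1 (log2 0.42 ± 0.18) and Tfec 71.1 ± 24.7 and 98.3 ± 11.1 (log2 0.53 ± 0.22), with limma adjusted p of 0.431 and 0.445. Mitf was at or under the floor in 3 livers, with means of 15.0 and 37.7.

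Tfeb and its relatives bind an E-box, CACGTG, often preceded by GT. Promoter sequences of 300 bases, 250 before and 50 after the start, were in RefSeq (GRCm38.p6) for 36 of the 40 genes. The E-box on either strand was in 13 of them (36.1%), against 8.09% of 27025 genes with such a sequence. The longer form GTCACGTG, which contains the E-box, was in 11 (30.6%), against 2.55%. Of the other lysosomal genes it was in 10 of 64 (15.6%). These 11 genes are shown with 30 bases each around the copy nearest the start (for Ctsa the one before it), on the gene's strand, the longer form or its reverse complement in capitals.
Arsa, chr15:89477424-89477453, minus strand: ttcaactcagtGTCACGTGttgtctgctcc
Cln3, chr7:126583339-126583368, minus strand: acgggtactgtCACGTGACccccaacctgc
Ctsa, chr2:164833748-164833777, plus strand: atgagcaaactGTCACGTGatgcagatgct
Ctsd, chr7:142387907-142387936, minus strand: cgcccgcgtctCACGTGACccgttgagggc
Gla, chrX:134601183-134601212, minus strand: gtgagatctcgGTCACGTGagcaactctcg
Glb1, chr9:114401017-114401046, plus strand: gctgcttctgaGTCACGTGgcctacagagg
Lamp1, chr8:13159122-13159151, plus strand: atgccgactggCACGTGACcacatcacgtg
Lgmn, chr12:102439125-102439154, minus strand: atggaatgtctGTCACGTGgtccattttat
Mcoln1, chr8:3500463-3500492, plus strand: ggcgccccgctCACGTGACcgcggcgcatg
Naglu, chr11:101070008-101070037, plus strand: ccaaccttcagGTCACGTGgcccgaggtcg
Sgsh, chr11:119355521-119355550, minus strand: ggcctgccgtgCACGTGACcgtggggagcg

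The members with this E-box were not the ones that separated the genotypes. Of 35 genes with both a promoter sequence and a probe set, the 13 with the E-box had a median difference of 0.04, 8 positive and 0 without overlap. The 22 without it had a median of 0.21, 19 positive, and all 5 genes without overlap. The median was higher without the E-box under all 21 alternative settings, by 0.11 to 0.21. Those settings use the same genes and livers, and some leave every difference unchanged, so their agreement is not replication. Genes with the E-box were also dimmer, with a median intensity of 100.1 against 379 and a median SE of 0.19 against 0.12. Among genes with a mean of at least 100 the medians were 0.06 for 7 with and 0.20 for 20 without it. The split was made after the values were known and was not tested.

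**Figure D4:**
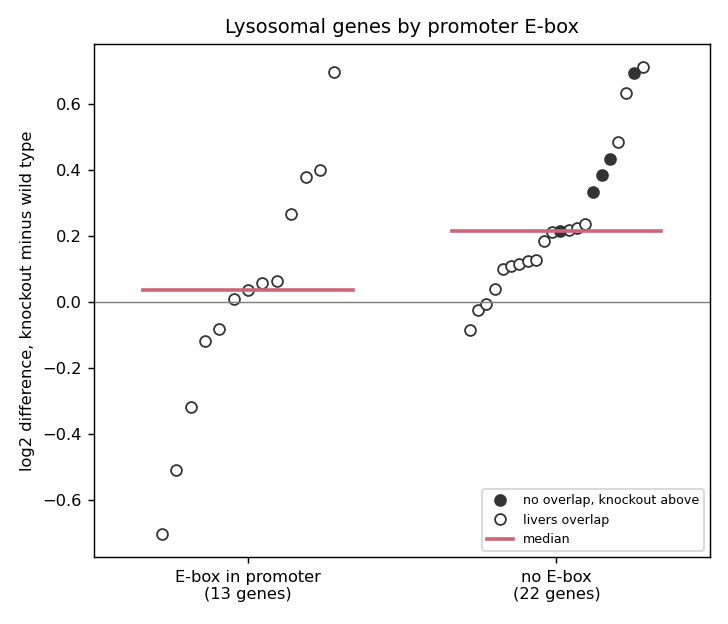
Log2 difference, knockout minus wild type, of 35 lysosomal genes split by an E-box in the promoter window (13 with, 22 without); red lines are medians. The 5 filled points, genes whose genotypes do not overlap, all lie in the group without the E-box, and the medians are 0.04 and 0.21.

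An ETS-type motif, GAGGAAGT, is of the kind bound by PU.1, a transcription factor of macrophages and other myeloid cells. It was on either strand in 4 of the 36 promoters (11.1%), against 3.69% of all genes and 0 of 64 other lysosomal genes. All 4 had positive differences of 0.40 to 0.69 (median 0.53), and Ctsc and Gusb were without overlap. Of the 31 genes without it 23 were positive (median 0.11), and 3 were without overlap, Psap among them. This split too was made after the values were known and was not tested. Ctss was the single macrophage-rich gene with it. The motif is in capitals, as its reverse complement, in these 30-base stretches, which in Ctss crosses the start and in Gusb lies after it.
Ctsc, chr7:88277923-88277952, plus strand: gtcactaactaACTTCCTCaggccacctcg
Ctss, chr3:95526773-95526802, plus strand: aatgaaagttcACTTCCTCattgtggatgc
Gla, chrX:134601135-134601164, minus strand: tgagatgccgcACTTCCTCctcctttggaa
Gusb, chr5:130003000-130003029, minus strand: atccaggacttcaagcgACTTCCTCtttct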

How the data were processed

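Total RNA of 10 fetal livers, 1 per fetus, was labelled as biotin cRNA for Affymetrix arrays, per the labels' protocols. The deposited values are intensities on a linear scale, 1 for each array and probe set; 21.5% are at or below 0, as after background subtraction. Their direction needs no settling, but their scaling between arrays stays unknown. Software and scaling behind the authors' values: not given in the sources used here.

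Here intensities were quantile normalized, values under 16 set to 16, and log2 taken. The 27022 probe sets with a mean at or above the 40th percentile were tested, and the rest left out. This floor replaces one at the lowest positive value, 0.000978, which inflates the folds of dim genes and remains as an alternative. Knockout and wild type were compared with limma 3.58.1 in R 4.3.3 (eBayes with trend, genotype the only term, two-sided, Benjamini-Hochberg over all tested probe sets, threshold 0.05). Exact permutation tests of the mean log2 value used all 252 splits and are two-sided. The fit was tested on simulated data. The platform annotation gave a single symbol to 34945 probe sets, more than 1 to 932 and no symbol to 9160. The number of arrays limits the precision.

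The members and lists were chosen with earlier results of these data known. The genes whose livers are given in full are the 3 macrophage-rich ones, those called or without overlap, and the 10 with the largest differences. Other lysosomal genes and markers were named if called. Otherwise the 4 with the smallest p and the brightest marker of a list were named, plus Tfe3, Mitf, Tfec, Adgre1 and Csf1r. Cd163, Vsig4, Clec4f, Ank1, Epor, Prg2 and Kit were added after their values were seen. Alternatives covered normalization, floor, filter, variance model, array weights, replicate block, probe set choice and each liver left out. Promoters were matched by symbol and searched on both strands. Figures used matplotlib 3.10.9 in Python 3.11.15.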

Additional observations from a re-analysis of the deposited data

Results flagged for a closer look

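Dixon's ratio was computed for 86 groups of 5 livers, where chance flags about 1 in 20 groups, or 4.3, and 2 values stood apart. Gla was high in wild type replicate 3, with a log2 value of 6.16 against 5.35 in the nearest wild type liver. Mcoln1 was high in wild type replicate 5, at 6.53 against 6.39.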

How the results depend on the processing

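In all 21 alternatives were run, of which 10 left out 1 liver. The number of lysosomal genes called higher, 2, was 4 with median scaling or array weights, 1 with values as deposited, a filter at the 60th percentile or the mean over probe sets, and 0 with a floor of 32, a floor at the lowest positive value, no filter or no variance trend; without 1 liver it ran from 0 to 3 (3 without wild type replicate 5). No member was called lower in any of these. With median scaling Ctsz and Gusb joined the calls (limma adjusted p = 0.0309 and 0.0421), the median of all genes was 0.06 and that of the members 0.21, and 31 of 49 called genes were higher, against 20 of 42. The genes without overlap numbered 5, all of them general genes (12.8% of the list against 1.34% of all genes). They were 6 with median scaling and 3 with the mean over probe sets, a count added after the data were seen. Without 1 liver they ran from 5 to 8, where fewer livers make separation by chance more frequent. The share over all genes is not given for these settings, so the changes cannot be read against it. The macrophage-rich median of 0.24 became 0.52 with the mean over probe sets, through Laptm5 alone. Over the whole table the 56 called probe sets became 85 with array weights, 12 with a floor of 32 or at the lowest positive value, 9 without trend and 4 without filter, and ran from 13 to 148 without 1 liver (148 without wild type replicate 5). Ctsz also passed with array weights and without wild type replicate 5 (limma adjusted p = 0.0376 and 0.0247), and Gusb with array weights and without knockout replicate 3 (0.0494 and 0.0474). The medians of the general genes and of the macrophage markers moved by less than the spread between livers.

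Same-numbered livers correlated at 0.0309 to 0.131 in their deviations, and only 1 of the 5 correlations was over 0.1, so the numbers were not taken as pairs. As a hint the other way, all 5 were positive and 3 of 5 wild type livers correlated best with the knockout liver of their number. With the replicate block 127 probe sets were called, and Gusb joined Ctsc and Psap (limma adjusted p = 0.0335).

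Some differences changed sign, none of them past the test in the main or the changed setting. All lay within 0.1 of 0 at first except Man2b1 (0.19) and Tfeb (0.21): Ctsb and Scarb2 with median scaling (0.00648 and 0.0724), Tpp1 with it (0.0530), Cln3 as deposited (-0.0224) and Tfeb at the lowest positive value (-0.13). With the mean over probe sets Cln3, Fuca1, Man2b1, Ppt1, Scarb2 and Tpp1 became -0.0141, 0.00730, -0.0728, -0.00217, 0.0485 and 0.0227. Without 1 liver the ranges crossed 0 for Cln3 (-0.12 to 0.17), Ctsa (-0.00616 to 0.0705), Fuca1 (-0.20 to 0.0557), Npc1 (-0.0857 to 0.17), Ppt1 (-0.0359 to 0.14), Scarb2 (-0.0623 to 0.0583), Tfeb (-0.0331 to 0.35) and Tpp1 (-0.0641 to 0.0146). Dim genes such as Tfeb, Naglu and Sgsh are limited by their signal over the floor.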
